A study of Mus musculus with 6 samples.

Results

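The EGF receptor family was followed in olfactory bulb cells sorted from mice with and without Sox9, through 8 genes taken by their symbols: the receptor genes Egfr, Erbb2, Erbb3 and Erbb4, and the ligand genes Hbegf, Nrg1, Nrg2 and Nrg3. The 8 are part of 24421 genes listed in each library, and all 8 were among the 18413 genes that entered the test. RNA was sequenced from 3 control and 3 Sox9 KO libraries, each made from the bulbs of 1 adult male mouse. Both groups received AAV-GFAP-iCre-P2a-TurboRFP, a virus in which the GFAP promoter drives Cre recombinase and the red fluorescent protein TurboRFP, so the controls carried Cre as well. KO mice were Sox9fl/fl, in which Cre removes the floxed part of Sox9, a transcription factor gene used as an astrocyte marker. Control mice had no floxed allele and are named both C57BL/6J and Sox9+/+ in the study. Red cells were collected by flow sorting at 4 weeks. The GFAP promoter limits Cre to cells that use it, and the sort takes any cell that is red, whatever its type.

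The EGF receptor family is a set of receptor tyrosine kinases that pair with each other when a ligand binds, and then signal through the Ras-ERK and PI3K-AKT cascades. EGFR binds ligands such as EGF, TGF-alpha and HB-EGF, ERBB3 and ERBB4 bind neuregulins, and ERBB2 has no known soluble ligand of its own and acts as a partner. In the brain EGFR is known from neural progenitors and glia, ERBB3 from the oligodendrocyte lineage, and ERBB4 and the neuregulins from neurons and interneurons.

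In mm10 coordinates of RefSeq, Egfr spans chr11:16752203-16913907 and Erbb2 chr11:98412484-98437716, both on the plus strand. Erbb3 spans chr10:128567523-128589635, Erbb4 chr1:68031884-69108576, Nrg1 chr8:31807452-32891609 and Nrg3 chr14:38365102-39473235, all on the minus strand. In GENCODE, exons of Erbb2 overlap those of Mien1 and exons of Nrg1 overlap those of Gm26578, each on the opposite strand. The sources used here do not say whether the counting used strand, so reads in these overlaps cannot be told apart.

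Egfr was the member with the largest difference between the groups, and the stretch just before its RefSeq start, chr11:16751953-16752202 on the plus strand, is shown for that reason. It has a GC content of 60.8% and holds no annotated exon.

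Egfr: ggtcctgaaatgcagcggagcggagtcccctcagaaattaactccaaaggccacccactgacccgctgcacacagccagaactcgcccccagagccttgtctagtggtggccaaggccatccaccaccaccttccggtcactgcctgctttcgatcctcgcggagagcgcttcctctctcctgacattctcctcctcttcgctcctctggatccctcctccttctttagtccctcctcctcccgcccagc

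The letters ACAAAG and ACAATG, which resemble the core bound by SOX proteins, were looked for on both strands. Neither is in this stretch. RefSeq windows of 3 other members were searched as well, and neither is in those. Hbegf and Nrg2, both on chr18, were left out of this search. The window of Erbb2 ends just before the span given above. Those of Erbb4 and Nrg3 lie at other starts. The Erbb4 window is inside its span and the Nrg3 window crosses the end of its span. Of 32851 promoters of that length, 16.5% hold ACAAAG, 10.7% hold ACAATG and 25.2% hold either. No capitals are used, since no match was found.

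The libraries held 18242129 to 86906527 reads in genes. Values are given as normalized counts, that is reads over the size factor of the library, and 1 read was worth between 0.395 and 1.58 of them. Sox9 itself was at 5185, 6562 and 4921 normalized counts in the control libraries and at 52.6, 64.3 and 57.7 in the KO libraries, a log2 fold change of -6.54 (SE 0.15, limma adjusted p = 2.5e-09). Genes were called at an adjusted p of 0.05 and a 1.5-fold change. By this rule 5299 genes (28.8%) were lower and 4090 (22.2%) higher in KO, and 43.6% of the calls were thus higher. That share was 56.8% after quantile normalization, 32.2% with libraries scaled to the same total, and 28.5% with the ribosomal RNA gene Rn45s left out of that total. The median log2 fold change over all tested genes was -0.07, which quantile normalization shifted by 0.27, the same total by -0.23 and the same total without Rn45s by -0.31.

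Of the 8 members, 7 were called lower in KO, beside 28.8% of all tested genes, and Erbb3 was not called. No member was called higher by limma, with the adjusted or the unadjusted p, nor by edgeR or DESeq2, beside 22.2% of all tested genes called higher. In 7 members all KO libraries lay below all control libraries, which was so for 34.7% of all tested genes, while 32.4% of genes had all KO libraries above. The median log2 fold change of the members was -2.26. Quantile normalization left 5 of them called lower, and the same total without Rn45s made it 8.

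**Figure D1:**
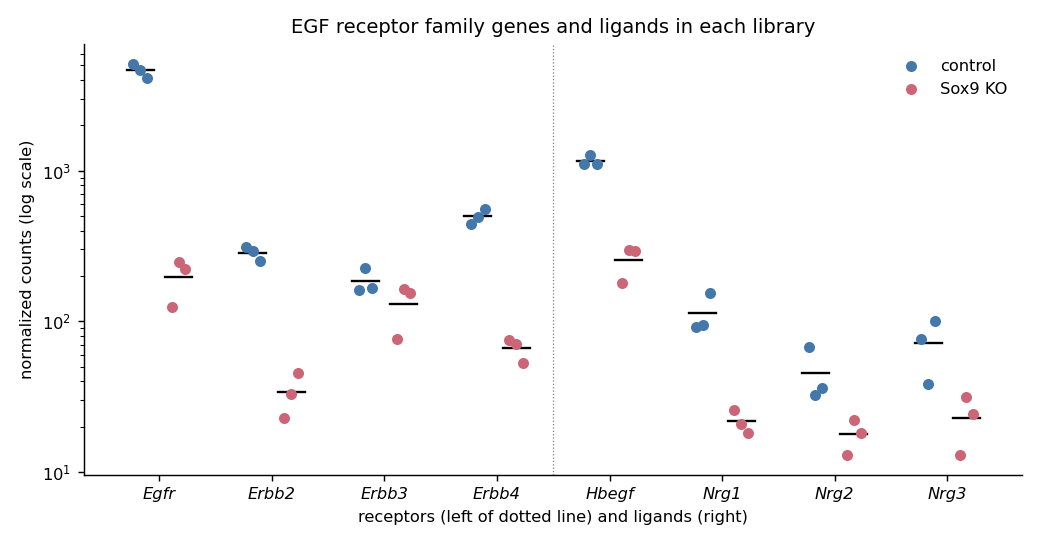
Normalized counts (log scale) of the 8 genes in each library, with 3 control libraries in blue, 3 Sox9 KO libraries in red and a bar at the group mean. The groups overlap for Erbb3, whose direction turned under quantile normalization, and lie apart for the other members.

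Egfr, the receptor for EGF, TGF-alpha and HB-EGF, stood at 5150, 4656 and 4139 normalized counts in the control libraries. In the KO libraries it stood at 125, 246 and 223, which rest on 126, 624 and 147 reads. All KO libraries were far below all control libraries, and the KO mean of 198 ± 64.4 (SD, n = 3) was 4.26% of the control mean of 4648 ± 505 (SD, n = 3). The log2 fold change was -4.60 (SE 0.22, limma adjusted p = 6.2e-08), and 0.907% of all tested genes had a lower value.

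Erbb2, the partner receptor, was at 311, 294 and 251 normalized counts in control and at 22.8, 32.8 and 45.6 in KO. The groups lay apart, with a KO level 11.8% of that in control. Its log2 fold change was -3.09 (SE 0.29, adjusted p = 6.2e-06).

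Erbb4, a neuregulin receptor with an active kinase, was at 441, 491 and 560 normalized counts in control and at 75.4, 70.7 and 53.2 in KO. Again no KO library reached the lowest control library. The log2 fold change was -2.89 (SE 0.21, adjusted p = 8.7e-07), which left 13.4% of the control level.

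Erbb3, the neuregulin receptor whose own kinase is weak, was at 162, 225 and 167 normalized counts in control and at 76.4, 163 and 153 in KO. KO replicates 2 and 3 lay close to the lower control libraries and KO replicate 1 lay well below them, so the groups overlapped. The difference did not pass the test, with a log2 fold change of -0.55 (95% confidence interval -1.23 to 0.12, adjusted p = 0.14). It was 0.13 after quantile normalization (adjusted p = 0.7) and -0.88 with the same total without Rn45s, where it was called (adjusted p = 0.034). Without KO replicate 1 it was -0.21. These data thus do not show whether Erbb3 changed.

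**Figure D2:**
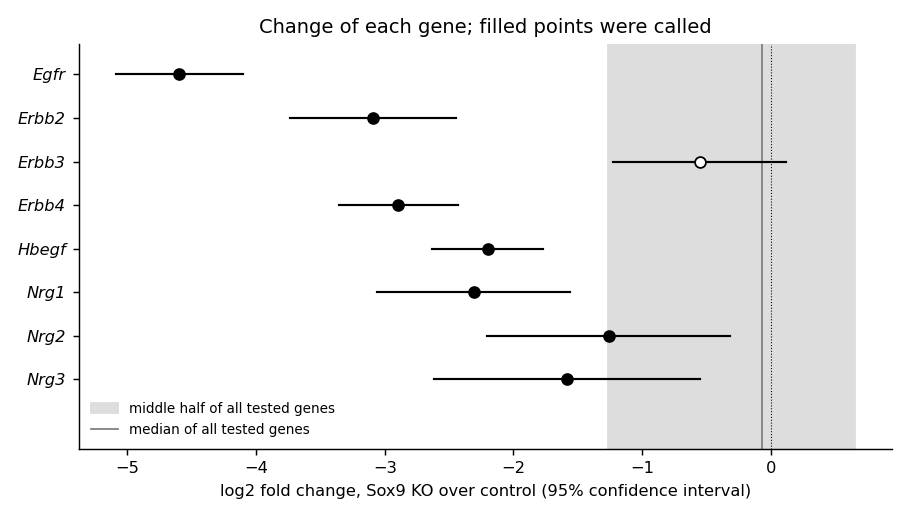
Log2 fold change of each gene, KO over control, with its 95% confidence interval from limma. Filled points were called, the open point (Erbb3, which moved to 0.13 under quantile normalization) was not, and the grey band spans the quartiles of all tested genes, -1.26 to 0.66, around their median of -0.07.

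Hbegf, which encodes a membrane-anchored ligand of EGFR and ERBB4, was the most abundant of the member ligands. The gene lies on the minus strand of mm10 at chr18:36504927-36515805. It was at 1100, 1270 and 1103 normalized counts in control and at 180, 299 and 292 in KO. All KO libraries were below all control libraries, at 22.2% of the control level on average, and the log2 fold change was -2.20 (SE 0.19, adjusted p = 3.9e-06).

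The neuregulin genes had fewer reads. Nrg1, which encodes a ligand of ERBB3 and ERBB4, was at 92.1, 94.3 and 154 normalized counts in control and at 25.8, 20.9 and 18.2 in KO. The KO values rest on 26, 53 and 12 reads. The groups lay apart, and the log2 fold change of -2.31 (SE 0.34, adjusted p = 0.00016) kept its call in all 19 alternatives.

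Nrg2, on the minus strand at chr18:36014581-36197532, was at 67.2, 32.3 and 36.3 normalized counts in control and at 12.9, 22.1 and 18.2 in KO, and the KO values rest on 13, 56 and 12 reads. Control replicate 1 stood above the other control libraries, although even the lowest control library was above the highest KO library. The log2 fold change was -1.26 (SE 0.42, adjusted p = 0.025). The call was lost under quantile normalization, where the value was -0.42 (adjusted p = 0.39). It was also lost without control replicate 1 (-0.94, adjusted p = 0.1), without KO replicate 1 (-1.06, adjusted p = 0.079) and without KO replicate 3 (-1.29, adjusted p = 0.055).

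Nrg3 was at 76.0, 38.5 and 101 normalized counts in control and at 12.9, 31.6 and 24.3 in KO, on 13 to 80 reads per KO library. Control replicate 2 lay near the KO libraries, but above all of them. The log2 fold change was -1.59 (SE 0.46, adjusted p = 0.013), and it was -0.74 after quantile normalization (adjusted p = 0.16). The call was also lost without control replicate 1 (-1.49, adjusted p = 0.056) and without control replicate 3 (-1.29, adjusted p = 0.075). Both NRG2 and NRG3 are neuregulins, and NRG3 binds ERBB4.

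The levels of different genes were compared after dividing by the merged length of their GENCODE exons. In control, Egfr was the highest member at 410 ± 44.6 normalized counts per kb (SD, n = 3), followed by Hbegf at 240 ± 20.05. Erbb2 followed at 54.7 ± 5.99 and Erbb4 at 40.2 ± 4.81, and the libraries of Erbb4 overlapped those of Erbb3, at 30.7 ± 5.81. The neuregulins were lowest and overlapped each other, with Nrg2 at 14.4 ± 6.09, Nrg1 at 11.0 ± 3.42 and Nrg3 at 10.5 ± 4.60 per kb. With the longest transcript as length, the mean of Nrg1 (21.0) came before those of Nrg3 (17.9) and Nrg2 (14.8), so the order among neuregulins depends on the length used.

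In KO the order was another. Hbegf was the highest at 53.1 ± 13.8 normalized counts per kb (SD, n = 3), and Erbb3, at 21.8 ± 7.91, stood beside Egfr, at 17.5 ± 5.69, with overlapping libraries. Erbb2 (6.47 ± 2.19), Nrg2 (5.65 ± 1.47), Erbb4 (5.38 ± 0.949) and Nrg3 (3.36 ± 1.38) followed, each overlapping the next. Nrg1 was lowest at 2.09 ± 0.371, and its libraries overlapped those of Nrg3.

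The make-up of the receptor genes was taken within each library, where the scaling between libraries has no part. Egfr made up 78.8%, 75.5% and 75.1% of the receptor sum per kb in control and 32.3%, 35.7% and 33.8% in KO. Erbb3 made up 4.67%, 6.87% and 5.71% in control and 37.1%, 44.6% and 43.8% in KO. For both genes the groups lay apart, with a mean difference of -42.5 percentage points for Egfr and 36.1 for Erbb3.

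An exact two-sided permutation test gave p = 0.1 for each of these 2 shares, the smallest value that 3 against 3 libraries allow, and 0.2 after adjustment over the 4 receptor shares. The share of Erbb2 went from 10.2% ± 0.271 to 12.7% ± 2.35 (SD, n = 3; exact permutation p = 0.3, adjusted 0.3), and that of Erbb4 from 7.6% ± 1.58 to 11.5% ± 5.55 (exact permutation p = 0.2, adjusted 0.267). For Erbb2 and Erbb4 the groups overlapped. The difference for Erbb4 was 3.94 percentage points and 0.79 without KO replicate 1, and that for Erbb2 was 2.51 points and 1.36 without KO replicate 3. Leaving out any single library kept the difference between -43.4 and -41.4 points for Egfr and between 34.7 and 38.4 for Erbb3. Among the member ligands, Hbegf held 86.9% ± 3.84 of the sum per kb in control and 82.6% ± 1.63 in KO. The receptor sum itself went from 536 ± 45.8 to 51.1 ± 14.7 normalized counts per kb, and the ligand sum from 275 ± 10.6 to 64.2 ± 16.2.

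**Figure D3:**
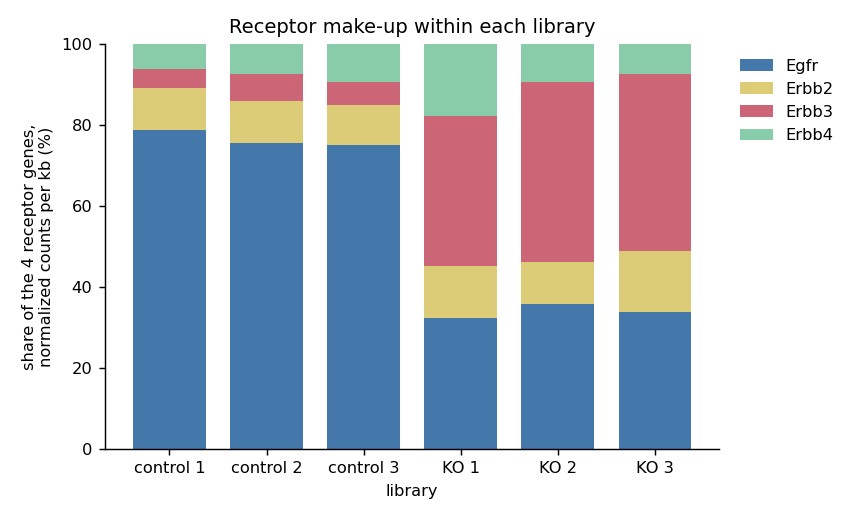
Share of each receptor gene in the sum of the 4 receptor genes, in normalized counts per kb of exon (%), for each library. Egfr takes 75.1% to 78.8% of each control bar and 32.3% to 35.7% of each KO bar, while Erbb3 takes 4.67% to 6.87% and 37.1% to 44.6%.

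The marker genes of several cell types differed between the groups as well. All 10 astrocyte markers were called lower, among them the glutamate transporter genes Slc1a2 (log2 fold change -4.30) and Slc1a3 (-2.72) and the water channel gene Aqp4 (-3.26). Their summed level was between 489926 and 549280 normalized counts in control and between 34203 and 44271 in KO. All 8 microglia markers were called higher, among them Csf1r (2.0) and P2ry12 (1.43), with sums between 116795 and 141234 in control and between 413824 and 511657 in KO.

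Markers of cell types in which these receptors and ligands are known were called as well. Of 9 markers of bulb interneurons and neuroblasts, 9 were called lower, such as Gad2 (-2.77), Gad1 (-3.13) and Dcx (-4.72), with sums of 9116 to 12030 normalized counts in control and 876.6 to 1499 in KO. Of 9 markers of neurons in general, 8 were called lower, among them Snap25 (-2.51) and Syt1 (-2.75), while Slc17a7 did not pass the test (-0.90, called lower with either total), and their sums were 12933 to 17093 and 2139 to 3839. All 6 markers of oligodendrocyte precursors were called lower, with Olig1 at -3.55, Olig2 at -4.14 and Pdgfra at -3.05. Their sums were 6820 to 7717 in control and 578 to 907 in KO.

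Of 7 markers of mature oligodendrocytes, 6 were called lower, including Mbp (-1.09) and Mobp (-1.57), and the sums were 33210 to 57475 in control and 13894 to 23097 in KO. Of 7 markers of olfactory ensheathing cells, 5 were called lower, including Fabp7 (-1.62), Frzb (-1.01) and Npy (-0.60, a call lost under quantile normalization), with sums of 14189 to 20437 and 5301 to 7391. Sox10, called lower, is in both this list and that of oligodendrocyte precursors. Of 4 markers of border macrophages, 3 were called lower, Lyve1 (-2.80) and Cd163 (-0.67) among them, and Mrc1 was called higher (0.70, lost under quantile normalization and with either total), with sums of 12708 to 18872 and 19440 to 20850. Of 6 endothelial markers, 3 were called lower, such as Slco1c1 (-2.67), and Flt1 was called higher (0.80, lost with either total), while Pecam1 did not pass the test (-0.53, and 0.07 after quantile normalization), with sums of 1662 to 2454 and 1349 to 1703. Of 8 markers of mural cells and fibroblasts, 3 were called lower, including Pdgfrb (-3.33) and Rgs5 (-2.34), while Dcn did not pass the test (-0.67, called lower with either total), with sums of 2517 to 2920 and 775 to 1316.

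The samples are labelled as sorted astrocytes. Astrocyte markers were present in every library, and their sum was above that of the microglia markers in each control library and below it in each KO library. No marker gene of these lists was at 0 in every library. Quantile normalization left 6 markers called lower for neurons, 5 for mature oligodendrocytes, 4 for olfactory ensheathing cells and 2 for endothelial cells. With the same total, 9 were called lower for neurons, 7 for mature oligodendrocytes, 4 for endothelial cells and 5 for mural cells and fibroblasts. The part of these markers in the values of the members was not tested. In such bulk samples, fewer cells of a type and less RNA of a gene per cell cannot be told apart.

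The members were also set against the astrocyte markers of the same library, a comparison chosen after the marker values were seen. The mean log2 value of the 10 astrocyte markers was 14.6, 14.5 and 14.4 in control and 10.6, 10.8 and 10.8 in KO, a difference of -3.76. Relative to that mean, Sox9 was lower in KO by a difference of -2.79 and Egfr by a difference of -0.84. Egfr lay at -2.22, -2.36 and -2.42 in control and at -3.64, -2.88 and -3.00 in KO, so all KO libraries were still below all control libraries.

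The 7 other members turned direction on this scale. Any gene with a log2 fold change above -3.76 lies higher in KO on this scale. Of all tested genes, 6.39% were lowered more than Erbb2, so the turn is not particular to these members. The share of all genes whose groups lie apart on this scale was not computed. The KO minus control difference was 0.67 for Erbb2, 0.86 for Erbb4 and 3.20 for Erbb3. It was 1.56 for Hbegf, 1.45 for Nrg1, 2.5 for Nrg2 and 2.17 for Nrg3. The 10 markers themselves spread from -0.60 to 1.04 around their mean difference, and Erbb2 and Erbb4 lay within that spread. These are values with no test, and they say how the members stood beside astrocyte transcripts, not in which cells the RNA was.

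**Figure D4:**
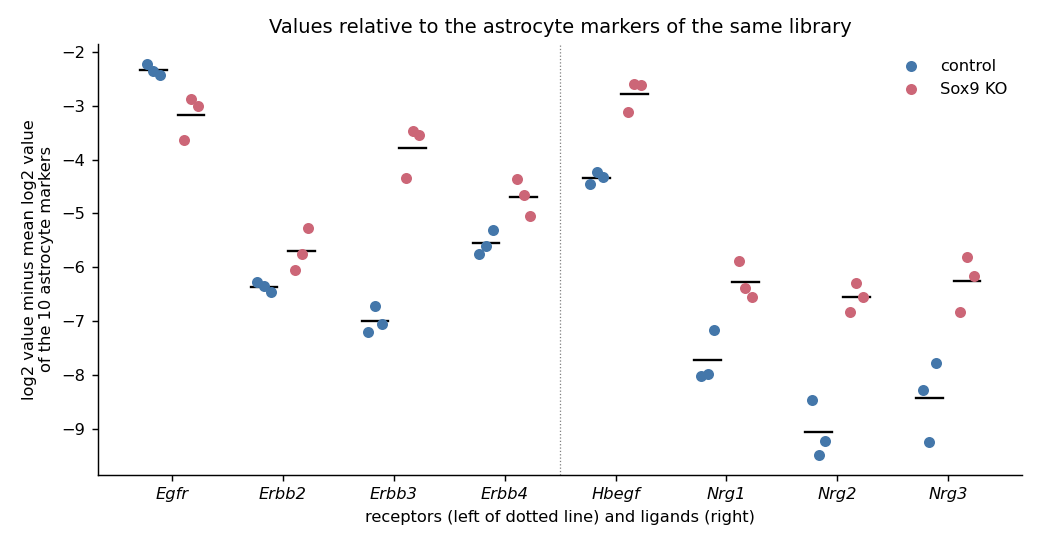
Log2 value of each gene minus the mean log2 value of the 10 astrocyte markers in the same library, with control libraries in blue, Sox9 KO libraries in red and a bar at the group mean. On this scale Egfr stays lower in KO (difference -0.84), while the 7 other members lie higher, by 0.67 to 3.20, of which Erbb2 and Erbb4 are within the spread of the markers (-0.60 to 1.04). Any gene with a log2 fold change above -3.76 lies higher in KO here. The 95% confidence interval of the Egfr log2 fold change, -5.09 to -4.10, holds the value of the marker Slc1a2 (-4.30).

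The other genes of the pathway were called in both directions, as were all tested genes. Over 5 lists of ligands, processing enzymes, inhibitors, cascade members and ERK targets, 63 of 65 genes were tested, of which 20 were called lower and 21 higher, and their median log2 fold change was 0.23 beside -0.07 for all tested genes. The shares, 31.7% lower and 33.3% higher, stand beside 28.8% and 22.2% of all tested genes. The balance depended on the scaling, with 20 lower and 19 higher after quantile normalization, 22 and 16 with the same total, and 23 and 14 with the same total without Rn45s.

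Among 7 other ligand genes, 5 were tested and Tgfa was called higher. Tgfa, which encodes the EGFR ligand TGF-alpha, was at 2430, 2875 and 2446 normalized counts in control and at 5575, 6361 and 5385 in KO. Every KO library exceeded every control library, with a log2 fold change of 1.2 (95% confidence interval 0.93 to 1.39, adjusted p = 4.3e-06), the opposite direction to Hbegf. The remaining tested ligands did not pass the main test. Btc, the betacellulin gene, had a mean of 27.8 in control and 12.7 in KO (log2 fold change -1.05, adjusted p = 0.058), and was called lower with the same total (-1.28) and with the same total without Rn45s (-1.36). Areg, the amphiregulin gene, was at 11.1 and 4.40 (-1.36, adjusted p = 0.19). Egf was at 76.2 and 53.1 (-0.46, and 0.38 after quantile normalization) and Nrg4 at 16.2 and 16.3 (-0.16, and 0.69 after quantile normalization). Ereg had 1 read in KO replicate 2, Epgn had 1 read in KO replicate 1, and both were at 0 in the other libraries, so neither was tested.

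Of 6 genes for shedding and processing of ligands, 4 were called higher and 2 lower, and 1 of the calls was lost with the same total without Rn45s. The sheddase genes Adam17 (1.22, adjusted p = 8.8e-07), Adam10 (1.10, adjusted p = 8.7e-07) and Adam9 (0.96, adjusted p = 1.5e-05) were higher in KO. Bace1, whose protease cleaves NRG1, was lower (-0.90, adjusted p = 2.8e-05). Rhbdf1 was lower as well (-2.67, adjusted p = 4.3e-06), the largest change in this list.

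Of 8 genes for inhibition and turnover of the receptors, 4 were called higher, 1 was called lower and 3 did not pass, and 2 of the calls were lost under at least 1 other scaling. Lrig1, which encodes a membrane inhibitor of the family, was at 4976, 4644 and 4231 normalized counts in control and at 455, 551 and 615 in KO. Its groups lay far apart (log2 fold change -3.10, SE 0.13, adjusted p = 2.5e-08), in the direction of Egfr. The ubiquitin ligase gene Cbl (1.12, adjusted p = 1.2e-06) and the deubiquitinase gene Usp8 (1.08, adjusted p = 2.1e-06) were higher. The feedback inhibitor gene Errfi1 was higher as well (0.64, adjusted p = 0.00023), a call lost under quantile normalization and with either total. Lrig2 missed the fold threshold (0.50), and Rnf41, whose ubiquitin ligase acts on ERBB3, was at 0.22, and at -0.02 and -0.10 with the same total and the same total without Rn45s.

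Of 28 genes for adaptors and the kinase cascade, 8 were called lower, 7 higher and 13 did not pass, and 6 of the calls were lost under at least 1 other scaling. The docking protein genes went apart, with Gab2 higher (1.62, adjusted p = 1.2e-07) and Gab1 lower (-1.18, adjusted p = 1.4e-05). Pik3r1, the regulatory subunit of PI3K, was higher (0.91, lost under quantile normalization). Nras did not pass the test, was at 0.11 and turned direction under the other scalings.

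Of 16 ERK feedback and target genes, 9 were called lower, 5 were called higher and 2 did not pass, at a median of -1.03 on the log2 scale, and all 14 calls stood under the other scalings. The higher genes included the early response genes Egr1 (1.63, adjusted p = 4.4e-06) and Ier3 (0.96, adjusted p = 0.00011) and the ERK phosphatase gene Dusp6 (1.54, adjusted p = 4e-05). Etv1, a transcription factor gene, was lower (-0.65, adjusted p = 0.00017), the smallest fall among the 9 called lower. Spred1, an inhibitor gene of the cascade, was at -0.04, and Etv5 was at 0.00 and turned direction between scalings. RNA levels of these genes do not measure receptor or kinase activity.

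**Figure D5:**
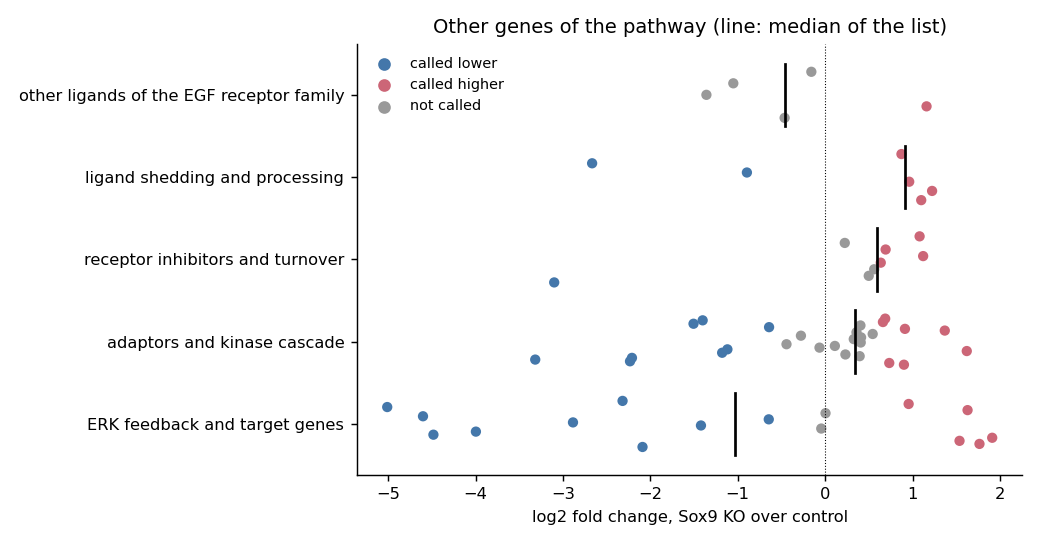
Log2 fold change, KO over control, of the 63 tested genes in 5 pathway lists, with genes called lower in blue, called higher in red and not called in grey, and a black line at the median of each list. The medians run from -1.03 for ERK targets to 0.92 for shedding genes, and the median of other ligands (-0.46) was 0.38 under quantile normalization.

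Genes whose pattern was most like that of each member were taken by Pearson's r over the 6 libraries on the log2 scale, among 11921 other genes with a mean of at least 100. Since the 6 libraries form 2 groups, a high r mostly says that a gene differed between them. For Egfr the most similar genes were Phactr3, Lonrf2 and Lrch2, for Erbb2 Cachd1, Stard13 and S1pr1, and for Erbb4 Ccs, Bcl11b and Map4k2. For Hbegf they were Syde1, Elovl6 and Kctd15, and for Nrg1 Thop1, Ift122 and Ints10. The r of these named genes was at least 0.9968. Between 1399 and 2520 genes reached an r of 0.95 with each of these 5 members.

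Erbb3 was not called, and no such count was made for other genes not called. Of the 11921 genes, 3 reached an r of 0.95 with Erbb3, namely Rab2b (0.980), Tmx4 (0.972) and Peak1 (0.952). For Nrg2 there were 61 such genes, led by Rbbp9 (0.998), Plekhh3 (0.995) and Hexdc (0.994), and for Nrg3 there were 57, led by Esyt3 (0.993), Iqub (0.985) and Fancm (0.984).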

How the data were processed

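RNA-seq of TurboRFP-sorted olfactory bulb cells gave 3 control and 3 Sox9 KO libraries, 1 per mouse, so p-values measure the spread between mice. The authors mapped reads to mm10 with STAR 2.5.0a, counted them per gene and normalized them with DESeq2 1.20.0. The sources used here do not name the annotation. The deposited signal values carry the name RPM, but in each library 100% of them were whole multiples of 1 step within 0.01 read, so they are read counts divided by a size factor. The test fixed for RPM values was kept. The step of KO replicate 1 was near 1 and was read from all digits of its values. No column was left unused (0).

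Of 24421 genes, 18413 had a mean of at least 1 and were tested, with 6008 left out. The groups were compared on log2(normalized count + 1) in limma 3.58.1 (R 4.3.3), with a variance trend, two-sided, and Benjamini-Hochberg adjustment over all tested genes. Fold changes are on that scale, which understates the change of low genes. The recovered reads were also tested with edgeR 4.0.16 (quasi-likelihood, TMM) and DESeq2 1.42.0. The limma, edgeR and DESeq2 fits were checked on simulated counts, and the permutation tests were not. Few genes changed in those counts, so they do not show how the fits behave where many genes differ. Receptor shares used exact permutation tests. Lengths are merged exons of GENCODE, and positions and the promoter window are from RefSeq (mm10, GRCm38.p6). Replicates differed by more than sampling noise, with a chi-square per degree of freedom of 19.4 to 67.4.

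The members and lists were chosen with earlier results of these data known. Named were the 8 members, Sox9, all other ligands, in each further pathway list up to 4 called and 2 uncalled genes with the highest means, in each marker list the 3 with the highest means, and the 3 genes most correlated with each member. Some single genes that this rule names are not reported here. Other pathway genes and the study's imaging, physiology and behaviour were not analysed here. Alternatives covered the scaling, the pseudocount, the low-value filter, the tool, the variance trend, the thresholds, a replicate block, the exon length and each library left out.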

Additional observations from a re-analysis of the deposited data

How the results depend on the processing

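Egfr, Erbb2, Erbb4, Hbegf and Nrg1 were called lower in all 19 settings tried, Nrg3 in 16, Nrg2 in 15 and Erbb3 in 1. Erbb3 reversed to 0.13 under quantile normalization. Relative to the astrocyte markers, an alternative chosen after seeing the data, the log2 differences reversed to 0.67 for Erbb2, 3.20 for Erbb3, 0.86 for Erbb4, 1.56 for Hbegf, 1.45 for Nrg1, 2.5 for Nrg2 and 2.17 for Nrg3. Any gene with a log2 fold change above -3.76 lies higher in KO on that scale. Genes called higher fell to 2630 with the same total without Rn45s, while those called lower stayed within 1.5 times the main count in all alternatives. The causes were not tested.

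With each library left out in turn, genes called lower numbered 4929 to 5129 and higher 3819 to 4035, members called lower 5 to 7, and pathway genes called lower 19 to 20 and higher 21 to 23. The log2 fold change ranged from -4.78 to -4.30 for Egfr, -3.33 to -2.85 for Erbb2, -0.75 to -0.21 for Erbb3, -2.99 to -2.74 for Erbb4, -2.33 to -1.96 for Hbegf, -2.44 to -2.07 for Nrg1, -1.46 to -0.94 for Nrg2 and -1.97 to -1.24 for Nrg3. Same-numbered libraries did not deviate together (correlations of -0.051, -0.013 and -0.013). These values cannot show whether same-numbered mice were related or handled together. The fit with the replicate block called 5227 genes lower, 4048 higher and the same 7 members. The receptor share differences kept their direction with the longest transcript as length.

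Low reads limit Nrg1, Nrg2 and Nrg3, at 12 to 80 reads per KO library, and Erbb2, at 23 to 83.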
